A study of Saccharomyces cerevisiae with 4 samples.

Results

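The genes described here are 31 genes of Saccharomyces cerevisiae that are known to be repressed or not expressed while cells grow on glucose, in chromatin pulled down with mRNA decay factors. They are 15 glucose-repressed genes of galactose, sucrose, lactate and fatty acid use and of gluconeogenesis, and 16 genes of meiosis and sporulation. They were taken as a list of 32 genes, from which JEN1, the lactate permease, was left out because it lies on chromosome XI, whose positions were offset from the gene table. They stand beside 5684 coding genes. No RNA was measured in this series, so that these genes were silent in the cells used is general knowledge and not a measurement.

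The data are 4 ChIP-exo libraries, 1 each from a strain with a TAP tag on Xrn1 (genotype XRN1-TAP), on Dcp2 (DCP2-TAP) or on Lsm1 (LSM1-TAP) and from a strain with no tag (no-TAP), all with the background strain yMC458 and all grown in YPD, a rich medium with glucose. Xrn1 is the cytoplasmic 5′ to 3′ mRNA exonuclease, Dcp2 removes the mRNA cap and Lsm1 is part of a protein ring that promotes cap removal, and the study asked whether such factors also contact genes. The TAP tag binds the IgG beads of the pull-down, and no-TAP gives the background of the beads. With 1 library per strain, differences between strains have no replicate check and no p-value. Brackets hold exact 95% intervals, which cover counting error only.

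The libraries held 158105 tags in Xrn1-TAP, 357674 in Dcp2-TAP and 211236 in Lsm1-TAP, with 33412 in no-TAP. These tags lay at 18481 distinct positions in Xrn1-TAP, 44955 in Dcp2-TAP and 25342 in Lsm1-TAP, with 4743 in no-TAP. A distinct position is a place in the genome on 1 strand, counted once however many tags it carries, since PCR copies are not independent molecules. Independent molecules that share a position are then counted once as well, and they were not told apart from PCR copies.

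Glucose represses these genes by several routes. The repressor Mig1 and the Tup1-Cyc8 corepressor act on SUC2 and the galactose genes, the activator Gal4 is held inactive by Gal80 without galactose, and the activators Cat8, Sip4 and Adr1, which depend on the kinase Snf1, are needed for gluconeogenesis and fat oxidation. Sporulation genes are switched on in starving diploid cells by a cascade in which Ime1 starts the early genes and Ndt80 the middle genes, and in growing cells Ume6 represses early genes and Sum1 many middle genes.

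Upstream of their start codons the 31 genes held few positions in every library, and 12 of them held none in any of the 4. In the 300 bp upstream, the 31 windows together held 18 positions in Xrn1-TAP, 30 in Dcp2-TAP and 23 in Lsm1-TAP, with 4 in no-TAP. As many windows of the mean coding gene give 26.8 in Xrn1-TAP, 69.9 in Dcp2-TAP and 33.3 in Lsm1-TAP, with 7.08 in no-TAP. As a multiple of the mean coding gene, the members stood at 0.671 (0.398 to 1.06) in Xrn1-TAP, 0.429 (0.29 to 0.613) in Dcp2-TAP and 0.691 (0.438 to 1.04) in Lsm1-TAP, with 0.565 (0.154 to 1.45) in no-TAP. The Dcp2-TAP library, the deepest, was below 1 by more than counting error, and the other 3 intervals held 1. The median member had 0 positions in each library. Over all coding genes the median was also 0 in Xrn1-TAP and no-TAP, and it was 1 in Dcp2-TAP and 1 in Lsm1-TAP. Fewer cells with a signal at a gene and less signal per cell cannot be told apart here.

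SPS1, a protein kinase needed to form the spore wall, stood apart from the other 30 genes by positions in Xrn1-TAP and Dcp2-TAP. Its window held 7 positions in Xrn1-TAP, 13 in Dcp2-TAP and 4 in Lsm1-TAP, with 1 in no-TAP. These carried 50 tags in Xrn1-TAP, 76 in Dcp2-TAP and 18 in Lsm1-TAP, with 10 in no-TAP. In Lsm1-TAP SPS2 and SMK1 followed closely with 3 positions each, and CYB2, MLS1, NDT80, SPS2 and SMK1 carried more tags than SPS1. In no-TAP CYB2, SMK1 and DIT2 also had 1 position. More positions than at SPS1 were found at 35 coding genes in Xrn1-TAP, 88 in Dcp2-TAP and 195 in Lsm1-TAP, with 180 in no-TAP. Without SPS1, a comparison added after its values were seen, the members stood at 0.424 (0.212 to 0.758) in Xrn1-TAP, 0.251 (0.146 to 0.402) in Dcp2-TAP and 0.59 (0.355 to 0.922) in Lsm1-TAP, with 0.438 (0.0902 to 1.28) in no-TAP, on the same scale. Omitting the gene with the most positions lowers the sum by construction, so these values are a description.

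**Figure D1:**
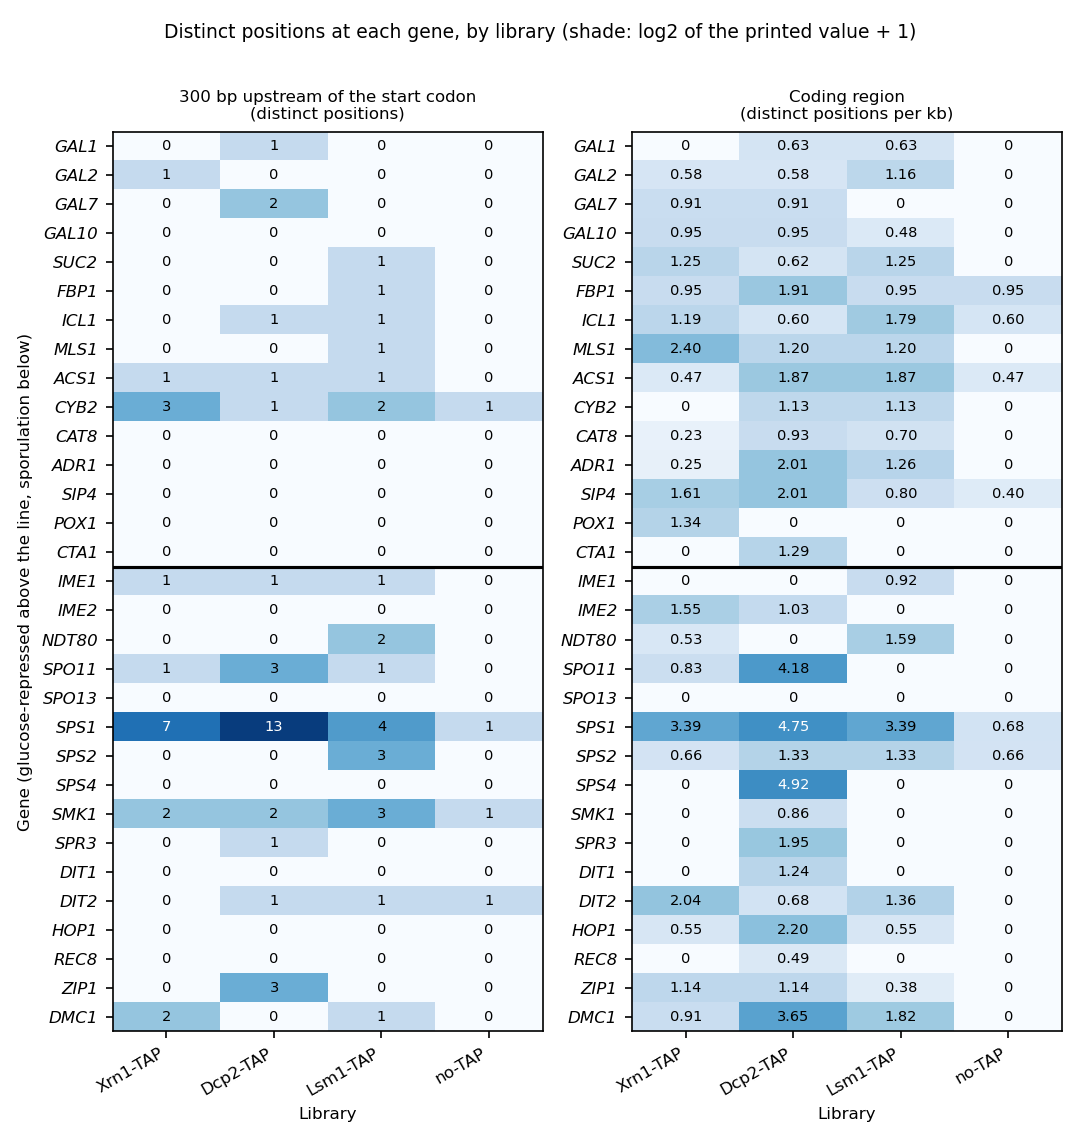
Distinct positions at the 31 genes (rows) in the 3 TAP libraries and no-TAP (columns), in the 300 bp before the start codon (left, counts) and in the coding region (right, positions per kb). Glucose-repressed genes stand above the line and sporulation genes below it, SPS1 is the darkest row on the left with 13 positions in Dcp2-TAP and 1 in no-TAP, and 12 rows there are 0 throughout.

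Empty windows were a larger share of the members than of all coding genes in Dcp2-TAP and Xrn1-TAP. In Lsm1-TAP and no-TAP the share was nearer to that of all coding genes, a gap of few windows among 31. In Xrn1-TAP 23 of the 31 windows (74.2%) held no position, beside 52.6% of all coding genes. In Dcp2-TAP it was 19 windows (61.3%) beside 24.4%, and in Lsm1-TAP 17 (54.8%) beside 45.1%. The untagged strain had 27 (87.1%) beside 81.8%. Windows empty in all 4 libraries made up 38.7% of the members, against 9.39% of all coding genes. After thinning the TAP libraries to the tag total of no-TAP, 23 member windows were empty in Xrn1-TAP beside 62% of all coding genes, 22 in Dcp2-TAP beside 46.6% and 22 in Lsm1-TAP beside 59%. A count of 0 has an exact upper bound of 3.69 positions, more than the mean window held in any library (0.865 in Xrn1-TAP, 2.25 in Dcp2-TAP and 1.07 in Lsm1-TAP, with 0.229 in no-TAP), so a single empty window does not set a gene apart from the mean at this depth.

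**Figure D2:**
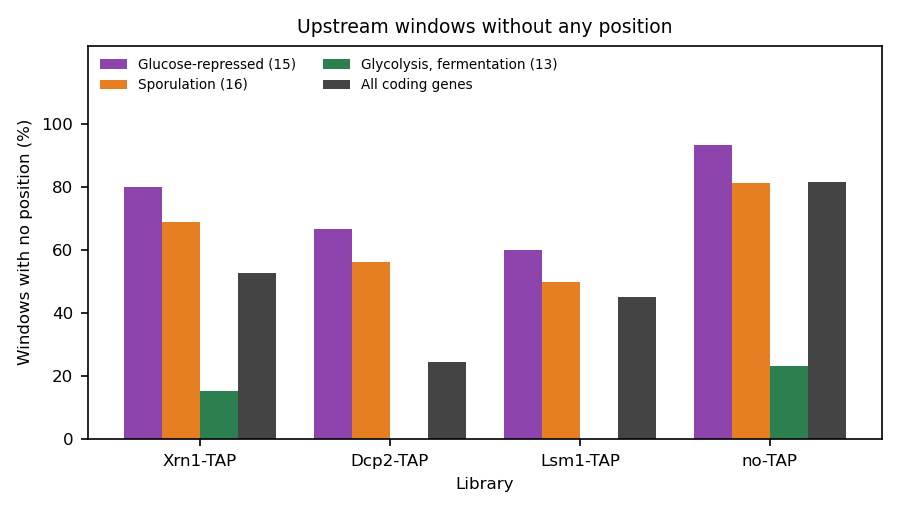
Share of the 300 bp upstream windows without a distinct position, in percent, for the 15 glucose-repressed, 16 sporulation and 13 glycolytic and fermentation genes and for all coding genes, in each library. Both silent groups lie above all coding genes in the 3 TAP libraries, in Dcp2-TAP at 66.7% and 56.2% against 24.4%, and in no-TAP the sporulation genes, at 81.2%, lie level with the 81.8% of all coding genes.

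Few members exceeded an even spread of a library's own tags. A gene was called where its upstream tags exceeded the mean density of the library in a Poisson test, 1-sided, with p adjusted over all 5684 coding genes by Benjamini-Hochberg and at most 0.05. The test takes tags as independent and covers counting error alone, while PCR copies of 1 molecule are counted as several tags, so its p-values by tags are too small. By tags, 5 members (16.1%) were called in Xrn1-TAP beside 28.5% of all coding genes, 6 (19.4%) in Dcp2-TAP beside 38.6%, 7 (22.6%) in Lsm1-TAP beside 28.5%, and 2 (6.45%) in no-TAP beside 11.2%. The 2 called in no-TAP were CYB2 and SPS1. With each position counted once, SPS1 was the single member called, in Xrn1-TAP beside 4.57% of all coding genes, also in Dcp2-TAP beside 11% and in Lsm1-TAP beside 6.02%, and no member was called in no-TAP, beside 0.774%. After thinning to the tag total of no-TAP, 4 members were called by tags in Xrn1-TAP beside 16.6% of all coding genes, 0 in Dcp2-TAP beside 10.4% and 3 in Lsm1-TAP beside 9.9%. The 6 calls of Dcp2-TAP were thus lost at an equal tag total. Distinct positions were not matched, as thinned Dcp2-TAP kept 19788 against 4743 in no-TAP. With the test limited to genes with at least 10 upstream tags over the 4 libraries, 15 members remained. Of these, 5 were called in Xrn1-TAP beside 37.7% of all genes kept, and 8 in Dcp2-TAP beside 54.4%. In Lsm1-TAP it was 7 beside 37.9%, and in no-TAP 2 beside 14.5%. The smaller called share of the members was thus not seen in each library among genes kept by this filter. It rests on the same tags as the calls. Calls by tags can rest on 1 position: MLS1, malate synthase of the glyoxylate cycle, had its single position in Lsm1-TAP, and the 30 tags there were enough for a call.

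The promoters of the galactose genes were nearly empty. GAL1, the galactokinase, had 1 position with 8 tags in Dcp2-TAP and 0 in each other library. GAL10, the epimerase, had 0 in all 4. GAL7, the uridylyltransferase, had 2 positions with 40 tags in Dcp2-TAP, where it was called by tags, and 0 in each other library. GAL2, the galactose permease, had 1 position with 5 tags in Xrn1-TAP and 0 in each other library. Together the 4 genes held 1 position in Xrn1-TAP, 3 in Dcp2-TAP and 0 in Lsm1-TAP, with 0 in no-TAP. Windows of the mean coding gene, 4 in number, give 3.46 in Xrn1-TAP, 9.02 in Dcp2-TAP and 4.29 in Lsm1-TAP, with 0.914 in no-TAP. GAL1 and GAL10 are transcribed away from each other from a shared promoter, and the 668 bp between their start codons held the single Dcp2-TAP position and no other. The gene table places a non-coding RNA gene in both windows.

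Genes of sucrose use, gluconeogenesis and the glyoxylate cycle had at most 1 position per library. SUC2, the invertase, and FBP1, fructose-1,6-bisphosphatase, each had 1 in Lsm1-TAP and 0 in each other library. ICL1, isocitrate lyase, had 1 in Dcp2-TAP, 1 in Lsm1-TAP and none in the other libraries. MLS1 had its single position in Lsm1-TAP. ACS1, an acetyl-CoA synthetase, had 1 position in each TAP library, which carried 22 tags in Xrn1-TAP, 10 in Dcp2-TAP and 6 in Lsm1-TAP. It had 0 in no-TAP and was called by tags in Xrn1-TAP.

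CYB2, the mitochondrial lactate dehydrogenase, had the most upstream positions of the glucose-repressed genes in the sum over the 4 libraries and was the single one of them with positions in all 4 libraries. It had 3 positions in Xrn1-TAP, 1 in Dcp2-TAP and 2 in Lsm1-TAP, with 1 in no-TAP. In Dcp2-TAP GAL7 had more, 2 positions against 1 at CYB2. These CYB2 positions carried 30 tags in Xrn1-TAP, 19 in Dcp2-TAP and 88 in Lsm1-TAP, with 7 in no-TAP. By tags it was called in all 4, the untagged strain included. In Xrn1-TAP 91.5% of coding genes had fewer positions, while in Dcp2-TAP it was 24.4%. The activator genes CAT8, ADR1 and SIP4 had no upstream position in any library, where 3 windows of the mean coding gene give 2.6 in Xrn1-TAP, 6.76 in Dcp2-TAP and 3.22 in Lsm1-TAP, with 0.686 in no-TAP. POX1, the acyl-CoA oxidase, and CTA1, the peroxisomal catalase, also had 0 throughout. The windows of SUC2 and ADR1 overlap those of genes outside the list.

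Sporulation genes were less uniform. IME1, the activator that starts meiosis, had 1 position in each TAP library, which carried 2 tags in Xrn1-TAP, 14 in Dcp2-TAP and 14 in Lsm1-TAP. It had 0 in no-TAP and was called by tags in Lsm1-TAP. Its window holds part of IRT1, a non-coding RNA known to repress IME1, and the positions cannot be assigned to 1 of them. NDT80, the activator of middle genes, had 2 positions with 24 tags in Lsm1-TAP, where it was called by tags, and 0 in each other library. IME2, a meiotic protein kinase, had 0 in all 4.

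Of the genes of recombination and the meiotic chromosome axis, 3 of 6 had no upstream position at all. HOP1, an axis protein, REC8, the meiotic cohesin subunit, and SPO13, a regulator of the first meiotic division, had 0 in all 4 libraries. SPO11, which makes the double-strand breaks, had 1 position in Xrn1-TAP, 3 in Dcp2-TAP and 1 in Lsm1-TAP, with 0 in no-TAP. It was called by tags in Dcp2-TAP. ZIP1, a component of the synaptonemal complex, had 3 positions with 41 tags in Dcp2-TAP, where it was called by tags, and 0 in each other library. DMC1, the meiotic recombinase, had 2 positions in Xrn1-TAP, 0 in Dcp2-TAP and 1 in Lsm1-TAP, with 0 in no-TAP. It was called by tags in Xrn1-TAP. SPO13, at 876 bp the shortest coding region of the set, was also the single member with no position in its coding region.

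The 5 middle genes held more upstream positions than any other role, and most of these lay at SPS1 and SMK1. In sum they held 9 positions in Xrn1-TAP, 16 in Dcp2-TAP and 10 in Lsm1-TAP, with 2 in no-TAP. SMK1, a mitogen-activated protein kinase of spore wall assembly, had 2 positions in Xrn1-TAP, 2 in Dcp2-TAP and 3 in Lsm1-TAP, with 1 in no-TAP. It was called by tags in the 3 TAP libraries. Its window overlaps those of NHP6A, a gene for an abundant chromatin protein, and YPR053C, so the positions cannot be assigned to 1 gene. SPS2 had 3 positions with 32 tags in Lsm1-TAP, where it was called by tags, and 0 in each other library, and its window covers part of the SPS1 coding region. SPR3, a sporulation septin, had 1 position, in Dcp2-TAP, and SPS4, whose window overlaps that of a gene outside the list, had none. Of the late genes, which make the dityrosine of the spore wall, DIT1 had none and DIT2 had 0 positions in Xrn1-TAP, 1 in Dcp2-TAP and 1 in Lsm1-TAP, with 1 in no-TAP. The 898 bp between their start codons, from which they are transcribed in opposite directions, held 0 positions in Xrn1-TAP, 1 in Dcp2-TAP and 1 in Lsm1-TAP, with 2 in no-TAP. The 2 positions of no-TAP there carried 35 tags, against 10 in Dcp2-TAP and 6 in Lsm1-TAP, counts too small to order the libraries.

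At SPS1 the positions lay near the gene and on both strands. Counted from the start codon as the gene table places it, they spanned -177 to -25 bp in Xrn1-TAP, -215 to -9 bp in Dcp2-TAP and -121 to -10 bp in Lsm1-TAP, and the no-TAP position lay at -146 bp. On the strand of the gene lay 3 positions in Xrn1-TAP, 4 in Dcp2-TAP and 2 in Lsm1-TAP, with 1 in no-TAP. On the other strand lay 4 positions in Xrn1-TAP, 9 in Dcp2-TAP and 2 in Lsm1-TAP, with 0 in no-TAP. No position in the window carried more than 11 tags. The coding region held 5 positions in Xrn1-TAP, 7 in Dcp2-TAP and 5 in Lsm1-TAP, with 1 in no-TAP. This is 3.39 positions per kb in Xrn1-TAP, 4.75 in Dcp2-TAP and 3.39 in Lsm1-TAP, with 0.679 in no-TAP. SPS1 has no other coding gene's upstream window and no RNA gene of the table in its own window. Its share of the sporulation genes' upstream positions was 53.8% in Xrn1-TAP, 54.2% in Dcp2-TAP and 25% in Lsm1-TAP, with 33.3% in no-TAP.

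**Figure D3:**
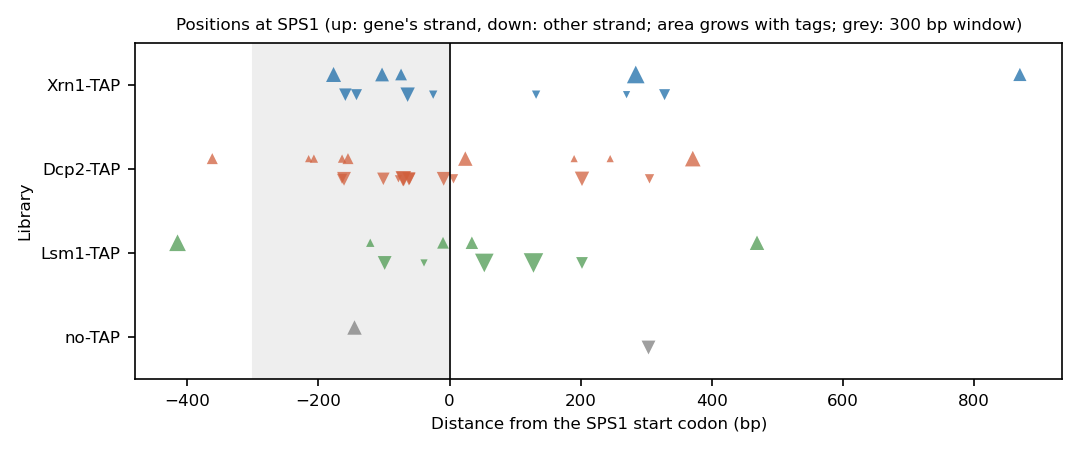
Distinct positions at SPS1 by distance from its start codon in bp, 1 row per library; triangles pointing up lie on the strand of the gene, those pointing down on the other strand, and their area grows with the number of tags. The shaded 300 bp upstream window holds 7 positions in Xrn1-TAP, 13 in Dcp2-TAP and 4 in Lsm1-TAP, with 1 in no-TAP.

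Glucose-repressed genes were set against sporulation genes. The 15 glucose-repressed windows held 5 positions in Xrn1-TAP, 6 in Dcp2-TAP and 7 in Lsm1-TAP, with 1 in no-TAP. The 16 sporulation windows held 13 positions in Xrn1-TAP, 24 in Dcp2-TAP and 16 in Lsm1-TAP, with 3 in no-TAP. Per window the ratio of glucose-repressed to sporulation genes was 0.41 (0.115 to 1.23) in Xrn1-TAP, 0.267 (0.0892 to 0.67) in Dcp2-TAP and 0.467 (0.162 to 1.2) in Lsm1-TAP, with 0.356 (0.00677 to 4.43) in no-TAP. It lay below 1 by more than counting error in Dcp2-TAP, where SPS1 held 13 of the 24 sporulation positions. Omitting SPS1, chosen after its values were seen, raises this ratio by construction. On so few positions an interval that holds 1 does not show equal groups. Without SPS1 the ratio was 0.833 (0.201 to 3.28) in Xrn1-TAP, 0.545 (0.166 to 1.61) in Dcp2-TAP and 0.583 (0.195 to 1.61) in Lsm1-TAP, with 0.5 (0.00847 to 9.6) in no-TAP, and every interval held 1. As a multiple of the mean coding gene the glucose-repressed windows stood at 0.385 (0.125 to 0.899) in Xrn1-TAP, 0.177 (0.0651 to 0.386) in Dcp2-TAP and 0.435 (0.175 to 0.896) in Lsm1-TAP, with 0.292 (0.00739 to 1.63) in no-TAP. The 3 TAP intervals lay below 1. By tags the multiple for the glucose-repressed windows was 0.499 in Xrn1-TAP, 0.341 in Dcp2-TAP and 0.969 in Lsm1-TAP, with 0.272 in no-TAP, so that Lsm1-TAP stood near the mean. The ratio of glucose-repressed to sporulation genes by tags was 0.741 (0.519 to 1.05) in Xrn1-TAP, 0.493 (0.381 to 0.634) in Dcp2-TAP and 1.09 (0.85 to 1.4) in Lsm1-TAP, with 0.498 (0.172 to 1.3) in no-TAP. By positions, sporulation windows stood at 0.939 (0.5 to 1.61) in Xrn1-TAP, 0.665 (0.426 to 0.99) in Dcp2-TAP and 0.932 (0.533 to 1.51) in Lsm1-TAP, with 0.82 (0.169 to 2.4) in no-TAP. Without SPS1 these stood at 0.462 (0.17 to 1.01) in Xrn1-TAP, 0.325 (0.162 to 0.582) in Dcp2-TAP and 0.746 (0.385 to 1.3) in Lsm1-TAP, with 0.583 (0.0707 to 2.11) in no-TAP.

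Close to the start codon the glucose-repressed genes were almost without positions. In the nearest 150 bp they held 0 positions in Xrn1-TAP, 1 in Dcp2-TAP and 1 in Lsm1-TAP, with 1 in no-TAP. The Dcp2-TAP position lay at GAL7, that of Lsm1-TAP at FBP1 and that of no-TAP at CYB2. As many windows of the mean coding gene give 7.15 in Xrn1-TAP, 19.3 in Dcp2-TAP and 8.66 in Lsm1-TAP, with 1.84 in no-TAP. This is a multiple of 0.0518 (0.00131 to 0.288) in Dcp2-TAP and 0.115 (0.00292 to 0.643) in Lsm1-TAP, with an upper bound of 0.516 for the 0 of Xrn1-TAP, while the no-TAP interval held 1. In the next 150 bp they held 5 positions in Xrn1-TAP, 5 in Dcp2-TAP and 6 in Lsm1-TAP, with 0 in no-TAP. This is 0.858 (0.279 to 2) times the mean in Xrn1-TAP, 0.345 (0.112 to 0.805) in Dcp2-TAP and 0.807 (0.296 to 1.76) in Lsm1-TAP. Sporulation genes held 9 positions in Xrn1-TAP, 12 in Dcp2-TAP and 10 in Lsm1-TAP, with 1 in no-TAP in the nearest 150 bp. Without SPS1 they held 4 positions in Xrn1-TAP, 5 in Dcp2-TAP and 6 in Lsm1-TAP, with 0 in no-TAP there. In 22 further glucose-repressed genes outside the set, the nearest 150 bp held 4 positions in Xrn1-TAP, 10 in Dcp2-TAP and 4 in Lsm1-TAP, with 1 in no-TAP. This is 0.381 (0.104 to 0.976) times the mean in Xrn1-TAP, 0.353 (0.169 to 0.649) in Dcp2-TAP and 0.315 (0.0858 to 0.806) in Lsm1-TAP, with 0.37 (0.00936 to 2.06) in no-TAP. The share of their window positions that lay there was 44.4% in Xrn1-TAP, 47.6% in Dcp2-TAP and 33.3% in Lsm1-TAP. Over all coding genes the nearest 150 bp held 55.1% of window positions in Xrn1-TAP, 57.1% in Dcp2-TAP and 53.8% in Lsm1-TAP, with 53.8% in no-TAP.

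**Figure D4:**
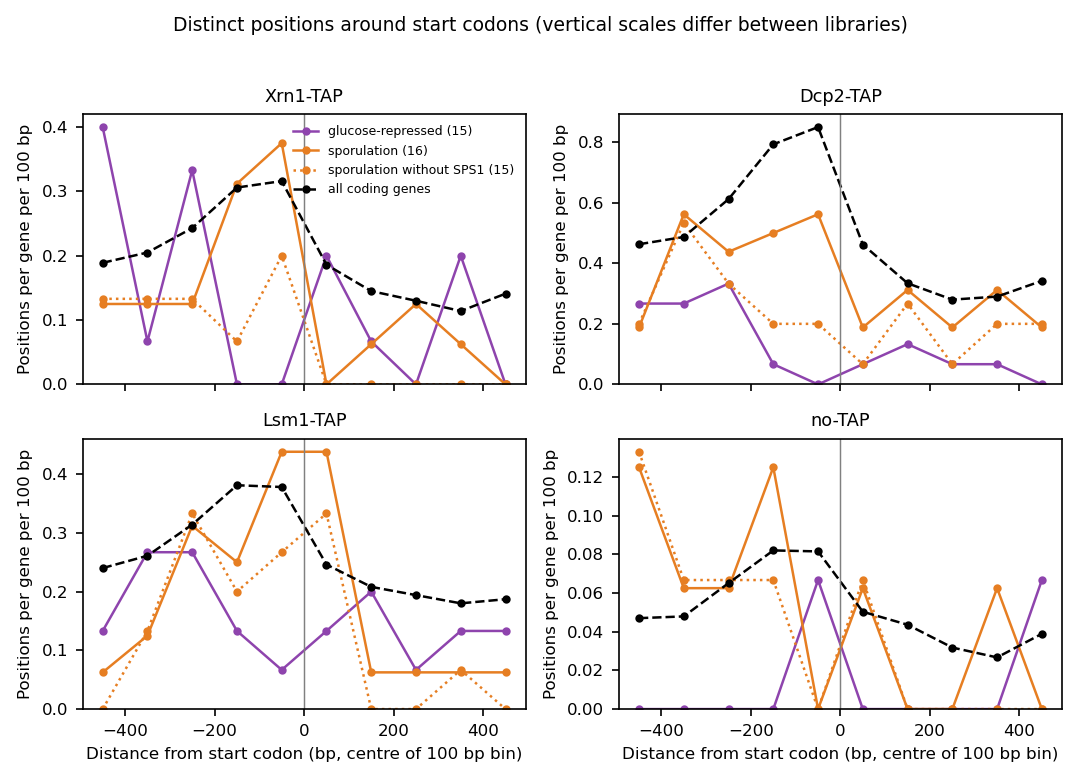
Distinct positions per gene in 100 bp bins from 500 bp before to 500 bp after the start codon, in each library, for the 15 glucose-repressed genes, the 16 sporulation genes with and without SPS1, and all coding genes; vertical scales differ between libraries. All coding genes peak in the 2 bins before the start codon, where the glucose-repressed genes held 0 and 0 positions in Xrn1-TAP, 1 and 0 in Dcp2-TAP and 2 and 1 in Lsm1-TAP, with 0 and 1 in no-TAP.

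Inside the coding regions the members were also below the mean. They held 42 positions in Xrn1-TAP, 76 in Dcp2-TAP and 45 in Lsm1-TAP, with 6 in no-TAP. Their density was 0.759 positions per kb in Xrn1-TAP, 1.37 in Dcp2-TAP and 0.813 in Lsm1-TAP, with 0.108 in no-TAP. All coding genes had 1.09 positions per kb in Xrn1-TAP, 2.58 in Dcp2-TAP and 1.59 in Lsm1-TAP, with 0.279 in no-TAP. As a multiple of all coding genes this is 0.695 (0.501 to 0.939) in Xrn1-TAP, 0.533 (0.42 to 0.667) in Dcp2-TAP and 0.512 (0.374 to 0.686) in Lsm1-TAP, with 0.388 (0.142 to 0.845) in no-TAP. Every interval lay below 1 in this setting. With positions of at least 2 tags, the interval held 1 at 0.815 (0.564 to 1.14) in Xrn1-TAP and 0.418 (0.114 to 1.07) in no-TAP. It also held 1 in Xrn1-TAP after thinning, at 0.839 (0.57 to 1.19). Those of Dcp2-TAP and Lsm1-TAP stayed below 1 in both settings. By tags the multiple was 0.973 (0.888 to 1.06) in Xrn1-TAP and 0.764 (0.701 to 0.831) in Lsm1-TAP. A member position carried on average 11.5 tags in Xrn1-TAP, against 8.18 over all coding genes, and 12 in Lsm1-TAP, against 8.04. The ratio of glucose-repressed to sporulation genes in positions per kb was 0.952 (0.496 to 1.85) in Xrn1-TAP, 0.708 (0.438 to 1.14) in Dcp2-TAP and 1.29 (0.684 to 2.52) in Lsm1-TAP, with 1.57 (0.225 to 17.4) in no-TAP, and every interval held 1. The same ratio in tags was 0.94 (0.783 to 1.13) in Xrn1-TAP, 0.869 (0.74 to 1.02) in Dcp2-TAP and 1.4 (1.17 to 1.68) in Lsm1-TAP, with 0.524 (0.23 to 1.15) in no-TAP. Of these the Lsm1-TAP interval lay above 1, and intervals by tags are too narrow where PCR copies occur.

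The 6 glucose-repressed genes with no upstream position in any library all held positions in the coding region. This was common, since only 238 of all 5684 coding genes had no coding-region position in any library. In the sum over the 4 libraries GAL10 held 5, POX1 3 and CTA1 2. SIP4 had 4 positions in Xrn1-TAP, 5 in Dcp2-TAP and 2 in Lsm1-TAP, with 1 in no-TAP. For ADR1 it was 1 position in Xrn1-TAP, 8 in Dcp2-TAP and 5 in Lsm1-TAP, with 0 in no-TAP, and for CAT8 1 position in Xrn1-TAP, 4 in Dcp2-TAP and 3 in Lsm1-TAP, with 0 in no-TAP. Summed over the 4 libraries, a sum weighted to the deeper ones, SIP4 had 4.82 positions per kb, MLS1 4.8, FBP1 4.78 and ACS1 4.67, on 5 to 12 positions each. Their order differed between libraries. In Xrn1-TAP MLS1 had 2.4 positions per kb and SIP4 1.61, in Dcp2-TAP SIP4 and ADR1 had 2.01 each, and in Lsm1-TAP ACS1 had 1.87 and SIP4 0.803. Over all coding genes the density was 1.09 positions per kb in Xrn1-TAP, 2.58 in Dcp2-TAP and 1.59 in Lsm1-TAP, with 0.279 in no-TAP. A sum over the 4 libraries is read against these densities added together. A leading place in the sum is a rank within the group and not a density above all coding genes. In its coding region MLS1 had 4 positions in Xrn1-TAP, 2 in Dcp2-TAP and 2 in Lsm1-TAP, with 0 in no-TAP. FBP1 had 1 position in Xrn1-TAP, 2 in Dcp2-TAP and 1 in Lsm1-TAP, with 1 in no-TAP. The ACS1 coding region had 1 position in Xrn1-TAP, 4 in Dcp2-TAP and 4 in Lsm1-TAP, with 1 in no-TAP. In the sum, the other glucose-repressed genes lay between 1.26 per kb at GAL1 and 4.18 at ICL1.

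Among sporulation genes SPS1 had 12.2 positions per kb in the same sum, DMC1 6.38, SPO11 5.01 and SPS4 4.92. These sums too are read against the added densities of all coding genes, and they rank genes within the group only. In Dcp2-TAP alone SPS4, with 4.92 positions per kb, stood beside SPS1 with 4.75, while in Xrn1-TAP DIT2 followed SPS1 with 2.04 positions per kb, and in Lsm1-TAP DMC1 with 1.82. In its coding region DMC1 had 1 position in Xrn1-TAP, 4 in Dcp2-TAP and 2 in Lsm1-TAP, with 0 in no-TAP. SPO11 had 1 position in Xrn1-TAP, 5 in Dcp2-TAP and 0 in Lsm1-TAP, with 0 in no-TAP in the coding region. All 5 positions of SPS4 came from Dcp2-TAP. In the sum, the other sporulation genes lay between 0 at SPO13 and 4.08 at DIT2.

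Promoters were then compared with coding regions within each library. The density of the glucose-repressed windows over that of their coding regions was 1.5 (0.444 to 4.02) in Xrn1-TAP, 1.15 (0.395 to 2.75) in Dcp2-TAP and 1.72 (0.635 to 4.03) in Lsm1-TAP, with 1.72 (0.0349 to 17.4) in no-TAP, and every interval held 1. Over all coding genes this factor was 2.64 in Xrn1-TAP, 2.91 in Dcp2-TAP and 2.25 in Lsm1-TAP, with 2.73 in no-TAP. The glucose-repressed interval of Dcp2-TAP lay below the value of all coding genes, and the other 3 held it. Sporulation genes stood at 3.47 (1.58 to 7.41) in Xrn1-TAP, 3.04 (1.76 to 5.17) in Dcp2-TAP and 4.77 (2.26 to 10.1) in Lsm1-TAP, with 7.61 (0.872 to 91.1) in no-TAP. Without SPS1 they stood at 2.18 (0.686 to 6.04) in Xrn1-TAP, 1.69 (0.773 to 3.44) in Dcp2-TAP and 5.08 (2.09 to 12.4) in Lsm1-TAP, with 10.2 (0.529 to 600) in no-TAP. Relative to an even spread over the nuclear genome, the multiple for the glucose-repressed windows was 0.786 in Xrn1-TAP, 0.385 in Dcp2-TAP and 0.813 in Lsm1-TAP, with 0.611 in no-TAP. For the windows of all coding genes it was 2.04 in Xrn1-TAP, 2.17 in Dcp2-TAP and 1.87 in Lsm1-TAP, with 2.1 in no-TAP.

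The TAP libraries were set against no-TAP over the members as a whole. In the upstream windows the ratio of positions to those of no-TAP was 4.5 (1.48 to 18.3) in Xrn1-TAP, 7.5 (2.64 to 29.3) in Dcp2-TAP and 5.75 (1.96 to 22.9) in Lsm1-TAP. For the libraries as a whole it was 3.9 in Xrn1-TAP, 9.48 in Dcp2-TAP and 5.34 in Lsm1-TAP. Scaled to these totals it was 1.15 (0.38 to 4.69) in Xrn1-TAP, 0.791 (0.279 to 3.09) in Dcp2-TAP and 1.08 (0.368 to 4.28) in Lsm1-TAP, and every interval held 1. By tags the scaled ratio was 1.34 (0.848 to 2.2) in Xrn1-TAP, 1.24 (0.801 to 2) in Dcp2-TAP and 1.88 (1.21 to 3.05) in Lsm1-TAP, with intervals that are too narrow where PCR copies occur. In the coding regions the scaled ratio by positions was 1.8 (0.76 to 5.17) in Xrn1-TAP, 1.34 (0.586 to 3.76) in Dcp2-TAP and 1.4 (0.597 to 4.03) in Lsm1-TAP. No-TAP had 4 member positions upstream and 6 in coding regions, so smaller differences were not detectable at this depth, and the 3 comparisons share this library.

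Further genes of the same programmes were also below the mean upstream. The 22 usable of 24 further glucose-repressed genes held 9 positions in Xrn1-TAP, 21 in Dcp2-TAP and 12 in Lsm1-TAP, with 1 in no-TAP. As a multiple of the mean coding gene this is 0.473 (0.216 to 0.898) in Xrn1-TAP, 0.423 (0.262 to 0.647) in Dcp2-TAP and 0.508 (0.263 to 0.888) in Lsm1-TAP, with 0.199 (0.00504 to 1.11) in no-TAP. Of these MDH2, cytosolic malate dehydrogenase, led with 3 positions in Xrn1-TAP, 3 in Dcp2-TAP and 3 in Lsm1-TAP, with 0 in no-TAP. HXK1, a hexokinase, had 1 position in Xrn1-TAP, 4 in Dcp2-TAP and 2 in Lsm1-TAP, with 0 in no-TAP. The 52 further sporulation genes held 20 positions in Xrn1-TAP, 31 in Dcp2-TAP and 17 in Lsm1-TAP, with 2 in no-TAP. Their multiple was 0.445 (0.272 to 0.687) in Xrn1-TAP, 0.264 (0.18 to 0.375) in Dcp2-TAP and 0.305 (0.177 to 0.488) in Lsm1-TAP, with 0.168 (0.0204 to 0.608) in no-TAP, and here the interval of no-TAP also lay below 1. GAS2, a glucanosyltransferase of the spore wall, had 3 positions in Xrn1-TAP, 6 in Dcp2-TAP and 2 in Lsm1-TAP, with 0 in no-TAP. SGA1, the sporulation glucoamylase, had 2 positions in Xrn1-TAP, 2 in Dcp2-TAP and 3 in Lsm1-TAP, with 0 in no-TAP. By tags the calls among the 22 were 2 (9.09%) in Xrn1-TAP, 7 (31.8%) in Dcp2-TAP and 3 (13.6%) in Lsm1-TAP, with 1 (4.55%) in no-TAP. Among the 52 they were 8 (15.4%) in Xrn1-TAP, 7 (13.5%) in Dcp2-TAP and 5 (9.62%) in Lsm1-TAP, with 1 (1.92%) in no-TAP. Over all coding genes the called share was 28.5% in Xrn1-TAP, 38.6% in Dcp2-TAP and 28.5% in Lsm1-TAP, with 11.2% in no-TAP. In coding regions the multiple for the further glucose-repressed genes was 0.871 in Xrn1-TAP, 0.883 in Dcp2-TAP and 0.962 in Lsm1-TAP, with 0.516 in no-TAP, each interval holding 1. Counted by tags, their multiple lay above 1 in the TAP libraries, at 1.17 in Xrn1-TAP, 1.49 in Dcp2-TAP and 1.32 in Lsm1-TAP, with 0.741 in no-TAP. For the further sporulation genes the multiple by positions was 0.57 (0.419 to 0.758) in Xrn1-TAP, 0.642 (0.534 to 0.765) in Dcp2-TAP and 0.568 (0.441 to 0.72) in Lsm1-TAP, with 0.569 (0.294 to 0.994) in no-TAP.

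Genes known to be strongly transcribed in glucose, which was not measured here, gave the other extreme. The 13 usable of 15 glycolytic and fermentation genes held 66 positions in Xrn1-TAP, 202 in Dcp2-TAP and 70 in Lsm1-TAP, with 25 in no-TAP upstream. Their multiple of the mean coding gene was 5.87 (4.54 to 7.47) in Xrn1-TAP, 6.89 (5.97 to 7.91) in Dcp2-TAP and 5.02 (3.91 to 6.34) in Lsm1-TAP, with 8.41 (5.45 to 12.4) in no-TAP. TDH3, the main glyceraldehyde 3-phosphate dehydrogenase, had 11 positions in Xrn1-TAP, 34 in Dcp2-TAP and 10 in Lsm1-TAP, with 6 in no-TAP. PDC1, pyruvate decarboxylase, had 10 positions in Xrn1-TAP, 22 in Dcp2-TAP and 14 in Lsm1-TAP, with 2 in no-TAP. The coding regions of the 13 genes stood at a multiple of 3.55 in Xrn1-TAP, 3.36 in Dcp2-TAP and 2.51 in Lsm1-TAP, with 2.71 in no-TAP. Scaled to library totals, the ratio of their upstream positions to those of no-TAP was 0.678 (0.422 to 1.12) in Xrn1-TAP, 0.852 (0.561 to 1.35) in Dcp2-TAP and 0.524 (0.328 to 0.864) in Lsm1-TAP. The TAP libraries were thus not above no-TAP at these genes, and the Lsm1-TAP interval lay below 1. The 16 genes of regulators that act on the silent genes, such as MIG1, TUP1, UME6 and GAL4, stood upstream at 0.722 (0.346 to 1.33) in Xrn1-TAP, 0.832 (0.561 to 1.19) in Dcp2-TAP and 0.815 (0.446 to 1.37) in Lsm1-TAP, with 0.547 (0.0662 to 1.98) in no-TAP, every interval holding 1. MIG2, a repressor related to Mig1, had 1 position in Xrn1-TAP, 6 in Dcp2-TAP and 6 in Lsm1-TAP, with 1 in no-TAP. SNF4, a subunit of the Snf1 kinase complex, had 4 positions in Xrn1-TAP, 2 in Dcp2-TAP and 1 in Lsm1-TAP, with 0 in no-TAP. In coding regions the multiple for the 16 regulator genes was 0.611 (0.383 to 0.925) in Xrn1-TAP, 0.541 (0.396 to 0.721) in Dcp2-TAP and 0.707 (0.498 to 0.974) in Lsm1-TAP, with 0.76 (0.305 to 1.56) in no-TAP. A coding-region multiple below 1 in the TAP libraries was thus not particular to the silent genes. Upstream, in no-TAP as in the TAP libraries, the silent genes stood below the mean and the glycolytic genes above it, with an interval for the 31 members of no-TAP that held 1.

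**Figure D5:**
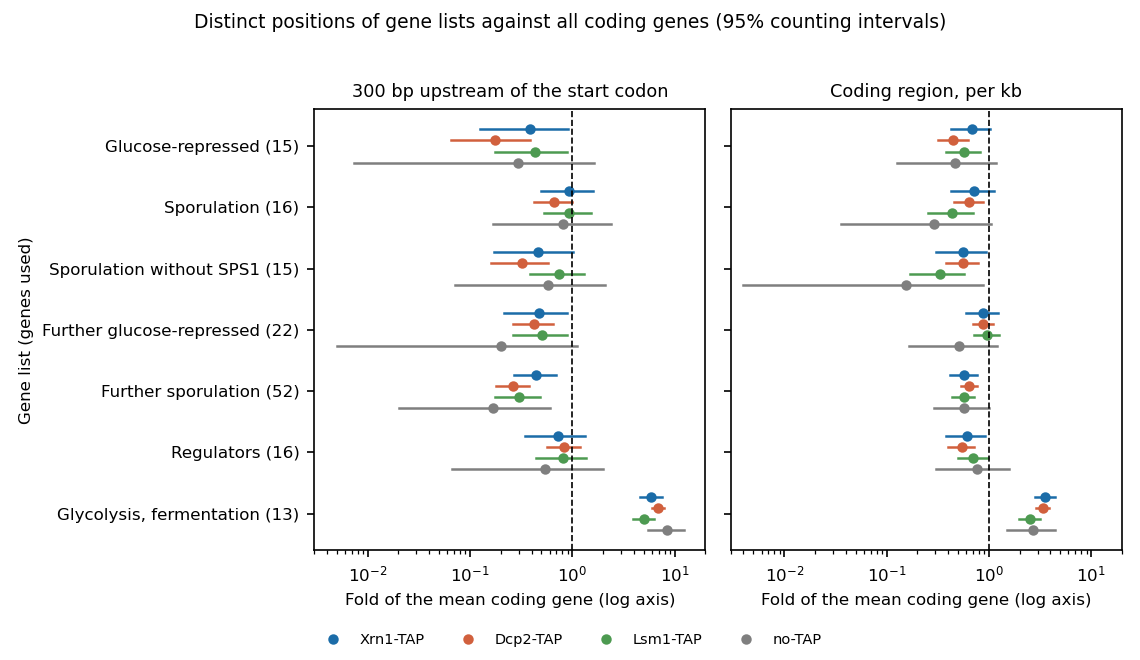
Distinct positions of each gene list as a multiple of all coding genes (log axis, dashed line at 1), in the 300 bp before the start codon (left) and per kb of coding region (right); points are the 4 libraries and bars the 95% counting intervals. Upstream in Dcp2-TAP the glucose-repressed genes lie at 0.177 and the glycolytic and fermentation genes at 6.89, and in no-TAP at 0.292 and 8.41.

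Positions at the members seldom recurred between libraries. In the windows and coding regions of the 31 genes, 3 of 60 Xrn1-TAP positions (5%, 1.04 to 13.9) lay within 10 bp of a Dcp2-TAP position on the same strand, against 22% of all Xrn1-TAP positions. Near a Dcp2-TAP position lay also 7 of 68 Lsm1-TAP positions (10.3%, 4.24 to 20.1), against 21.6% of all. Near an Xrn1-TAP position lay 7 of 106 Dcp2-TAP positions (6.6%, 2.7 to 13.1), against 12.3% of all. Without SPS1 it was 1 of 48 Xrn1-TAP positions near a Dcp2-TAP position and 1 of 86 Dcp2-TAP positions near an Xrn1-TAP position. At the glycolytic and fermentation genes 37.1% (29.1 to 45.5) of Xrn1-TAP positions lay near a Dcp2-TAP position. Near a no-TAP position lay 0 of 60 member positions of Xrn1-TAP, with an upper bound of 5.96% against 4.4% of all Xrn1-TAP positions. It was 2 of 106 of Dcp2-TAP (1.89%, 0.229 to 6.65), against 3.98% of all, and 1 of 68 of Lsm1-TAP (1.47%, 0.0372 to 7.92), against 4.15% of all. These 3 intervals held the share of all positions. The members also have fewer positions per kb, and the part of this density in the shares was not tested.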

How the data were processed

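By the labels' protocols, formaldehyde-fixed yeast was lysed, its chromatin sonicated and bound to IgG beads, and the bound DNA digested with lambda and RecJf exonucleases (ChIP-exo). The deposited values are, per the file headers, counts of tags per position and strand, not normalized. Aligner, build, filters and pooling: not given in the sources used here. A design text speaks of 2 replicates, and each file was treated as 1 library.

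With no build named, positions were set against the R64 gene table. The shift that put most positions 41 to 140 bp before start codons was at most 30 bp on 15 of 16 chromosomes and -370 bp on chromosome XI, which was left out; distances may be off by up to 30 bp. Tags and distinct positions were summed over windows and coding regions in Python 3.11.15 (scipy 1.17.1, numpy 2.4.6, pandas 2.3.3, figures with matplotlib 3.10.9). Multiples of the mean have exact Poisson intervals, ratios exact conditional binomial intervals and shares Clopper-Pearson intervals. The density for calls was that of the nuclear genome, ribosomal DNA left out. Calls and intervals were also run on simulated counts drawn independently of each other. Those counts lack the several tags per position of the real libraries, so they do not check the calls by tags on such data.

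Members, lists and rules were chosen with earlier results of these data known. Genes were named by rule: per group the 6 with most upstream positions, the 4 densest coding regions, every called gene and every gene with no upstream position, and the 2 leading genes of each list. A planned search for 5 promoter motifs was not run, as no promoter sequence was used here.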

Additional observations from a re-analysis of the deposited data

How the results depend on the processing

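The alternatives were windows of 150 and 500 bp, ended at the next coding gene or moved by 30 bp, positions with at least 2 tags, tags in place of positions, thinning to the no-TAP tag total, another scaling to no-TAP, coding regions outside upstream windows, a filter of 10 tags over the 4 libraries (passed by 15 of the 31 members), and omission of the 4 members whose windows overlap those of genes outside the list. Omission of SPS1 was chosen after seeing the data. The members' upstream multiple stayed below 1 under each that applied to it, at 0.424 to 0.77 for Xrn1-TAP, 0.251 to 0.522 for Dcp2-TAP, 0.558 to 0.927 for Lsm1-TAP and 0.414 to 0.721 for no-TAP. A value with an interval was counted as moved where it left the interval of its main value. Of the values recomputed for the comparisons, 17 moved and 185 did not, and for single members 42 moved and 826 did not. Wide intervals leave little room to move. A single-member count of 0 has an upper bound of 3.69. The upstream ratio of glucose-repressed to sporulation genes in no-TAP, 0.356, has an interval of 0.00677 to 4.43. The numbers of unmoved values thus depend on interval width and do not show that the results are stable. Ratios whose interval held 1 also crossed 1: glucose-repressed to sporulation genes reached 1.09 for Lsm1-TAP by tags and 1.07 for no-TAP with 150 bp windows, and the scaled ratio to no-TAP ranged from 0.873 to 1.45 for Xrn1-TAP, 0.598 to 1.24 for Dcp2-TAP and 0.824 to 1.88 for Lsm1-TAP. Per kb in coding regions, the ratio of glucose-repressed to sporulation genes ranged from 0.839 to 1.21 for Xrn1-TAP, 0.717 to 1.13 for Dcp2-TAP and 0.524 to 2.95 for no-TAP. For Lsm1-TAP this ratio stayed above 1, at 1.15 to 2.1. With 150 bp windows the ratio of glucose-repressed to sporulation genes was 0 for Xrn1-TAP, 0.0889 for Dcp2-TAP and 0.107 for Lsm1-TAP, and 2 members were called in Xrn1-TAP beside 19.5% of all coding genes and 3 in Lsm1-TAP beside 20.6%. With 500 bp windows 11 Dcp2-TAP windows were empty beside 14.4% of all coding genes, and 4 members were called in no-TAP beside 14.2%. By positions 1 member was called in each TAP library and 0 in no-TAP. After thinning, 0 members were called in Dcp2-TAP beside 10.4% and 3 in Lsm1-TAP beside 9.9%, and the coding-region multiple of Lsm1-TAP was 0.696. By tags that multiple was 0.973 for Xrn1-TAP and 0.764 for Lsm1-TAP. Without SPS1 the upstream multiple of Dcp2-TAP was 0.251. Thinning leaves fewer tags by construction, and for the other changes the cause was not tested. The 4 upstream positions of no-TAP limit each comparison with it. No paired analysis was possible because each strain has 1 library.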
